A study of Caenorhabditis elegans with 4 samples.

Results

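The centriole and centrosome assembly genes of the nematode Caenorhabditis elegans are described here in early embryos. They were chosen by sequence name as zyg-1 (F59E12.2), sas-4 (F10E9.8), sas-5 (F35B12.5), sas-6 (Y45F10D.9), spd-2 (F32H2.3), spd-5 (F56A3.4), air-1 (K07C11.2), tbg-1 (F58A4.8), gip-1 (H04J21.3) and tac-1 (Y54E2A.3), by a rule that reads names and no signal, although the list was drawn up with earlier results of these data known. All 10 genes were found, with 12 of the 23181 transcripts on the arrays, since gip-1 was represented by 3 transcripts and each other gene by 1. In the annotation 3 of the genes lie on chromosome III, 2 each on chromosomes I, II and V, and 1 on chromosome IV. None lies on the X chromosome, which holds 13.6% of the 19380 named genes measured.

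Total RNA was hybridised to 4 single-colour NimbleGen arrays of 1 group, called arrays 1 to 4 here after the replicate numbers in the labels. All 4 are labelled as early embryos of PFR40, a strain mutant for hpl-2 (allele tm1489), a gene for a heterochromatin protein of the HP1 family that binds methylated histone H3. Their growth protocol, however, says the embryos came from gravid adults of N2, the wild-type strain, and which name is right could not be decided here. The worms were hermaphrodites with a few males. Wild-type arrays, which the design text mentions, were not analysed here. The values therefore show signal and its spread over the arrays and no mutant against wild-type difference. Whether the replicates were separate cultures is not said in the labels, so p-values measure only the spread between these samples, which may be technical.

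The centrosome is the main organiser of microtubules in animal cells. At its core lie centrioles, around which a matrix of pericentriolar material gathers before mitosis and nucleates the spindle. In C. elegans the oocyte loses its centrioles and the sperm brings a pair of them into the egg, while most of the protein and RNA for the rapid early divisions comes from the mother. Centriole duplication runs in an order worked out in these embryos: SPD-2 brings the kinase ZYG-1 to the mother centriole, SAS-5 and SAS-6 then build the central tube, and SAS-4 is needed to put microtubules around it. Pericentriolar material is built from SPD-2 and the scaffold protein SPD-5, and it recruits the Aurora A kinase AIR-1, gamma-tubulin and the microtubule-stabilising protein TAC-1.

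Signals are given as normalized intensity in arbitrary linear units and on the log2 scale. For each array, background was set at the 95th percentile of 1343 chemoreceptor genes, which encode receptors of sensory neurons, and came to a log2 signal of 8.09, 8.45, 8.26 and 8.48 on arrays 1 to 4. A height is the log2 signal minus that background, and a transcript was called above or below background where the limma test of its height against 0 gave an adjusted p under 0.05 over all transcripts. Brightness depends on each probe, so heights of different genes were not ranked. The transcripts of hpl-2 itself, K01G5.2a, K01G5.2b and K01G5.2c, had heights of 2.96, 2.25 and 2.18, which do not check the genotype because no source used here gives the probes' positions relative to tm1489. As a check of the labelled stage, 6 of 6 maternal and 5 of 6 early zygotic markers were above background, where 51.9% of all named genes were. Markers of later differentiation were above it too, with 7 of 8 for muscle and 4 of 6 for cuticle. All 5 yolk protein genes measured as markers of adult intestine were below it, at heights of -0.67 to -0.27. The calls of vit-2 and vit-3 turned with lower backgrounds, and the rest of the 5 were not followed there. Across transcripts, the log2 signals of any 2 arrays had a Pearson's r of 0.981 to 0.996.

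All 10 centrosome genes, and all 12 of their transcripts, gave signal above background, where 51.9% of all named genes and 55.1% of all transcripts did. The median height of the 10 genes was 5.16 on the log2 scale, against 0.49 over all named genes and 3.90 over the named genes above background. Heights of single genes ran from 4.79 to 6.04. These counts and medians describe the lists only, since the probes of different genes differ in brightness, and they support no ranking.

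**Figure D1:**
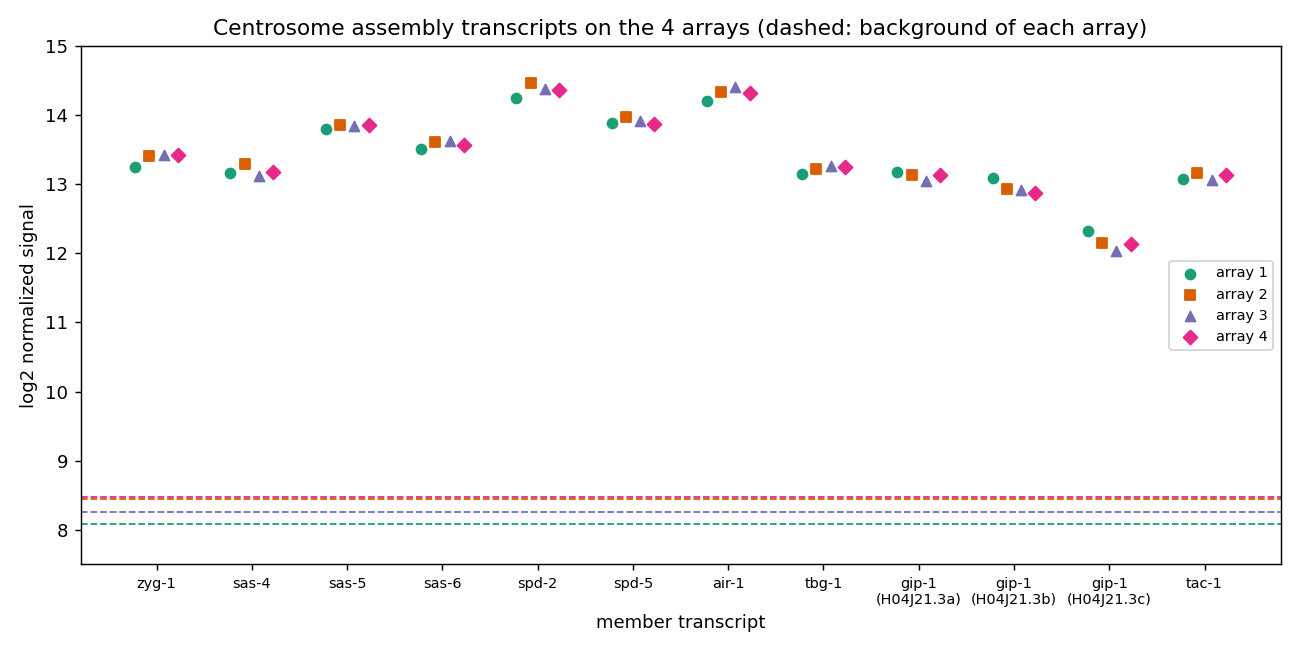
Log2 normalized signal (vertical axis) of the 12 member transcripts (horizontal axis) on arrays 1 to 4, with each array's background as a dashed line. Every point lies far above the 4 backgrounds, which sit between 8.09 and 8.48, and the 4 arrays of a transcript lie close together. Levels of different transcripts cannot be compared.

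The duplication kinase zyg-1, the gene that starts centriole assembly, had intensities of 9692, 10848, 10991 and 10951 on arrays 1 to 4. Arrays 2 to 4 lay together and array 1 lay below them. Its height was 5.06 ± 0.12 (SD, n = 4, limma adjusted p = 2.58e-10).

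The central tube gene sas-6, whose protein forms the scaffold of a new centriole, gave 11678, 12558, 12591 and 12086 on arrays 1 to 4, a height of 5.26 ± 0.16 (SD, n = 4). Its partner sas-5 gave 14198, 14829, 14708 and 14854, a height of 5.52 ± 0.15. Both were lowest on array 1. With a log2 SD of 0.03 for its signal over the arrays, sas-5 had the smallest spread of the 10 genes. The gene sas-4, which acts after them in adding centriolar microtubules, had 9159, 9994, 8895 and 9232, a height of 4.87 ± 0.16. For sas-4 array 2 was the highest and array 3 the lowest. The limma adjusted p was 2.92e-10 for sas-4, 2.58e-10 for sas-5 and 2.59e-10 for sas-6.

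Of the pericentriolar genes, spd-2, needed both for duplication and for the matrix, had intensities of 19411, 22502, 21233 and 21099 on arrays 1 to 4. Its highest array was 1.16-fold over its lowest, the widest range among the 10 genes by their brightest transcripts, with a log2 SD of 0.09. Array 1 was the lowest and array 2 the highest. The height of spd-2 was 6.04 ± 0.12 (SD, n = 4, limma adjusted p = 2.58e-10). The scaffold gene spd-5 gave 15135, 16033, 15450 and 15006, a height of 5.59 ± 0.17 with the same adjusted p. Arrays 1 and 4 were nearly equal for spd-5, and array 2 was the highest.

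The kinase gene air-1, the Aurora A homolog that matures centrosomes and promotes microtubules around them, had 18825, 20705, 21704 and 20360 on arrays 1 to 4. Array 1 was the lowest and array 3 the highest, a 1.15-fold range. The height of air-1 was 5.997 ± 0.157 (SD, n = 4, limma adjusted p = 2.58e-10).

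The gamma-tubulin gene tbg-1, whose product seeds microtubules, gave 9034, 9506, 9798 and 9760 on arrays 1 to 4. Its height was 4.90 ± 0.15 (SD, n = 4, limma adjusted p = 2.79e-10), and array 1 was the lowest again. The gene gip-1 encodes a subunit of the complex that holds gamma-tubulin, and it ran the other way. Its transcript H04J21.3a had 9296, 9015, 8431 and 8989 on the 4 arrays, H04J21.3b had 8738, 7843, 7693 and 7488, and H04J21.3c had 5124, 4561, 4179 and 4508. All 3 transcripts of gip-1 were highest on array 1, by 1.23-fold over the lowest array for H04J21.3c, 1.17-fold for H04J21.3b and 1.10-fold for H04J21.3a. The heights of these transcripts were 4.81 ± 0.20, 4.63 ± 0.27 and 3.84 ± 0.26 in the order a, b and c (SD, n = 4), and the largest limma adjusted p among them was 3.66e-09. Transcripts of 1 gene can share probes, so the 3 are not independent, and their levels were not set against each other.

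The microtubule-stabilising gene tac-1, which works with ZYG-9 at the centrosome, had 8611, 9168, 8556 and 8954 on arrays 1 to 4. Arrays 1 and 3 were nearly equal and low, and array 2 was the highest. The height of tac-1 was 4.79 ± 0.14 (SD, n = 4, limma adjusted p = 2.90e-10).

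The signal of the centrosome genes varied little between arrays. The median SD of the log2 signal over the 4 arrays was 0.057 for the 10 genes, with a range of 0.030 to 0.088, against 0.115 for all named genes above background. Bright genes vary less on these arrays in general. Among the 2593 named genes above background whose mean signal lay in the range of the members, the median SD was 0.064, close to that of the members. The highest array exceeded the lowest by 1.05-fold to 1.16-fold, with a median of 1.09-fold, against a median of 1.10-fold in those 2593 genes. These values take each gene by its brightest transcript. The other gip-1 transcripts, H04J21.3b and H04J21.3c, had larger log2 SDs of 0.098 and 0.121 and ranges of 1.17-fold and 1.23-fold. Heights varied more than signals, with SDs from 0.121 to 0.269 over the 12 transcripts, because the backgrounds of the arrays differ and enter every height. On array 1, where 6 of the 10 genes had their lowest signal, the background was also lowest, and the heights of the 12 transcripts were 4.23 to 6.16. On array 4 they were 3.66 to 5.89.

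**Figure D2:**
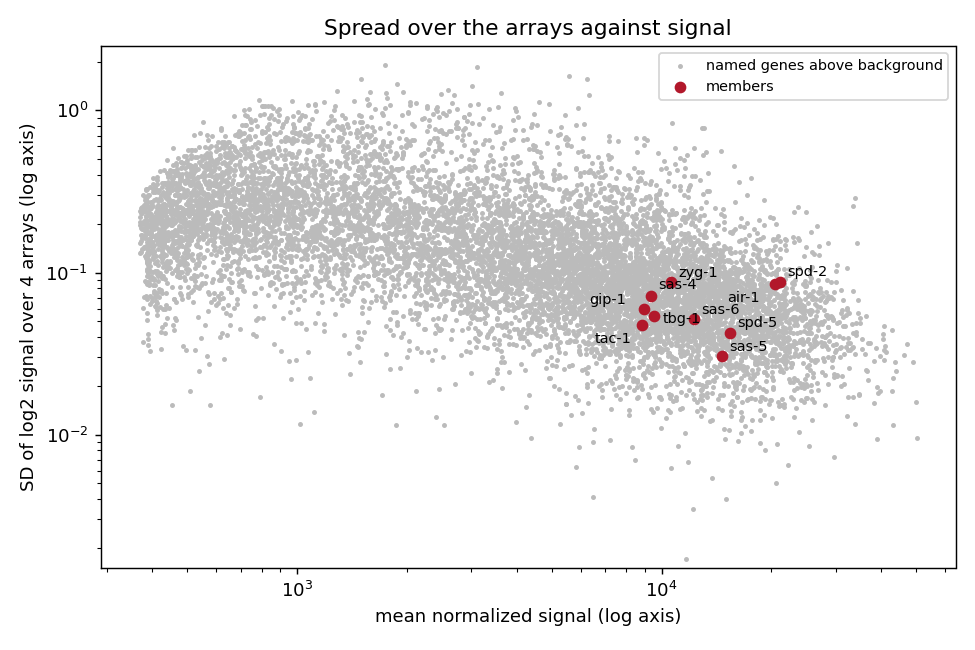
SD of the log2 signal over the 4 arrays against mean normalized signal, both on log axes. Grey points are the 10067 named genes above background and red points the 10 members, each by its brightest transcript. The members lie among genes of like brightness, with SDs of 0.030 to 0.088.

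Array 1 stood lowest for zyg-1, sas-5, sas-6, spd-2, air-1 and tbg-1, array 3 for sas-4, gip-1 and tac-1, and array 4 for spd-5. Of the 10067 named genes above background, 54.9% were lowest on array 1, so the 6 of 10 seen here is near the share of all such genes. The highest signal was on array 1 for gip-1 alone, or 1 of the 10 genes, against 26.9% of the named genes above background. The median deviation of the 10 genes from the mean of the arrays was -0.055, 0.036, 0.010 and 0.007 on arrays 1 to 4. Over all named genes above background it was -0.059, 0.029, 0.006 and 0.018, and over the 2593 genes of like signal -0.032, 0.013, 0.007 and 0.009. With each array centred on its median over the named genes above background, an alternative chosen after seeing the data, the members' medians were -0.024, 0.019, 0.010 and -0.007 on arrays 1 to 4. Without array 1 the medians on arrays 3 and 4 were -0.006 and -0.009, on the other side of 0. Each array is 1 sample, so these differences were not tested.

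**Figure D3:**
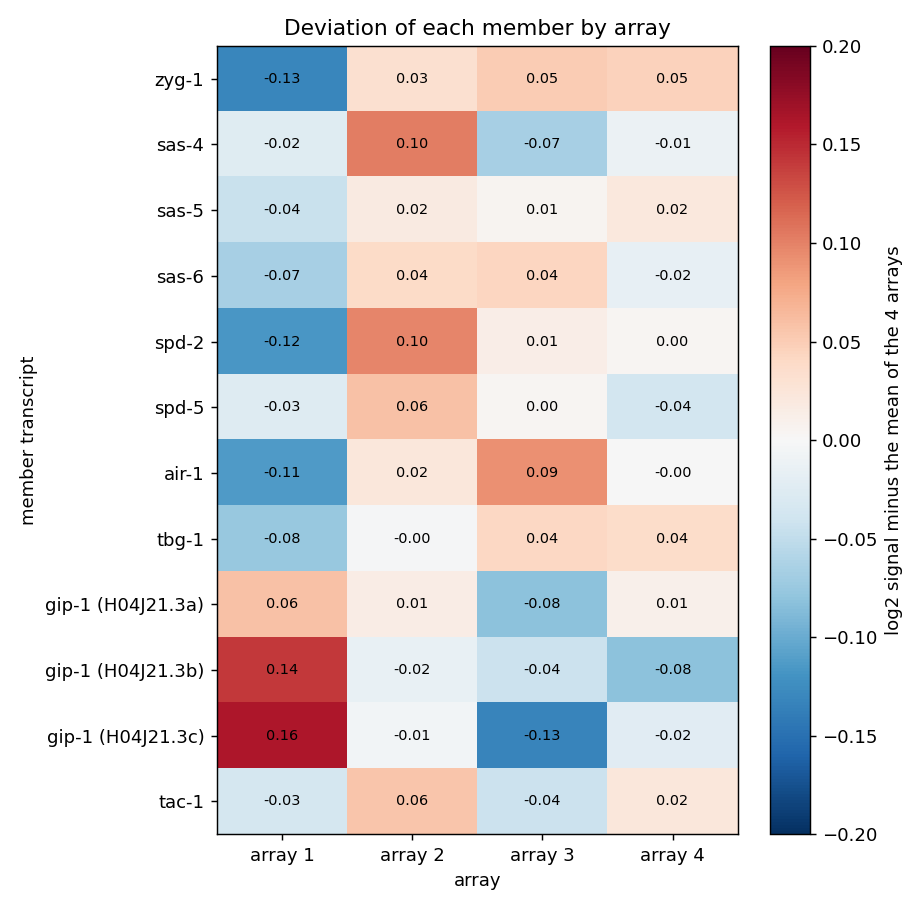
Log2 signal of each member transcript (rows) minus its mean over the 4 arrays, by array (columns), with the value printed in each cell. Blue is below and red above the mean. Array 1 is below the mean for every gene except gip-1, whose 3 transcripts are above it by 0.06 to 0.16.

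Profiles over the arrays were compared by the Euclidean distance between deviations, as a description over 4 arrays. The closest members were sas-5 and tbg-1, at a distance of 0.053, and sas-4 and tac-1 lay at 0.062. The kinase genes zyg-1 and air-1 were 0.064 apart. The gene gip-1 was 0.110 to 0.245 from the other 9 genes, with a median of 0.180, while the 36 pairs without it were 0.053 to 0.198 apart, with a median of 0.104. With each gene taken by its brightest transcript, spd-2 had the largest SD of the members. The named genes above background nearest to spd-2 were F44E7.3 at 0.0038, the proteasome subunit gene pas-4 at 0.011 and the histidyl-tRNA synthetase gene hars-1 at 0.013. Such likeness was common, since 1202 of 10066 genes (11.9%) lay within 0.1 of the spd-2 profile.

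The arrays differed in the signal of cell-type markers, and those values stand beside the small deviations of the centrosome genes. The summed intensity of the 8 muscle markers, of which 7 were above background, was 44108, 14672, 23668 and 17926 on arrays 1 to 4. The muscle myosin gene myo-3 alone spanned a 5.88-fold range, and the muscle regulator hlh-1 a 1.31-fold range. The 6 cuticle markers, 4 of them above background, also summed highest on array 1, at 66916 against 32430 to 42147 on the other arrays. The collagen genes dpy-7 and sqt-3 spanned 2.78-fold and 2.35-fold ranges.

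All 6 meiotic markers, all 7 sperm markers and 5 of 7 oocyte and eggshell markers were lowest on array 1. The exceptions were perm-2, highest on array 1, and perm-4, lowest on array 3, both named after their values were seen. All 6 maternal and all 6 early zygotic markers were lowest on array 1 too. So were 8779 of all 19380 named genes, and 54.9% of the named genes above background. The 7 oocyte and eggshell markers, 5 of them above background, summed to 35660 on array 1 and to between 53619 and 61582 on the others. Among them the chitin synthase gene chs-1 spanned a 3.48-fold range and the eggshell gene cbd-1 a 1.46-fold range. The 6 meiotic markers, all above background, summed to 40648 on array 1 and 48219 to 50882 elsewhere, with ranges of 1.59-fold for him-3 and 1.15-fold for htp-3. The 7 sperm markers, of which 4 were above background and 2 below, summed to 4037 on array 1 and 5527 to 7375 elsewhere. In that list spe-9 had a height of 0.60 and spe-11 one of 0.04 that was not told apart from background. With the 99th percentile of the chemoreceptors as background both were below it, at -0.31 and -0.87, and with the 75th spe-11 was above it at 0.87.

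The maternal and early zygotic sums varied less than the marker sums given above, of which the meiotic sum spanned least, at 1.25-fold. Single genes overlapped, since htp-3 of the meiotic list spanned 1.15-fold. The sum of the yolk genes, all below background, spanned 1.06-fold. The 6 maternal markers summed to 121202 on array 1 and to as much as 135023 on array 3, a 1.11-fold range, with mex-3 and pie-1 at 1.12-fold and 1.13-fold. The 6 early zygotic markers had a 1.20-fold range, with pes-10 at 1.12-fold and end-1 at 1.41-fold. The yolk genes vit-2 and vit-3 lay below background at heights of -0.33 and -0.29, and above it at 0.50 and 0.54 with the 75th percentile of the chemoreceptors, while no marker was at 0, since the lowest intensity on any array was above 100. For the 10 centrosome genes the sum was 125038, 135159, 132357 and 131293 on arrays 1 to 4, a 1.08-fold range. The part of these marker differences in the deviations of the centrosome genes was not tested. In total RNA, fewer cells of a type and less RNA per cell cannot be told apart.

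**Figure D4:**
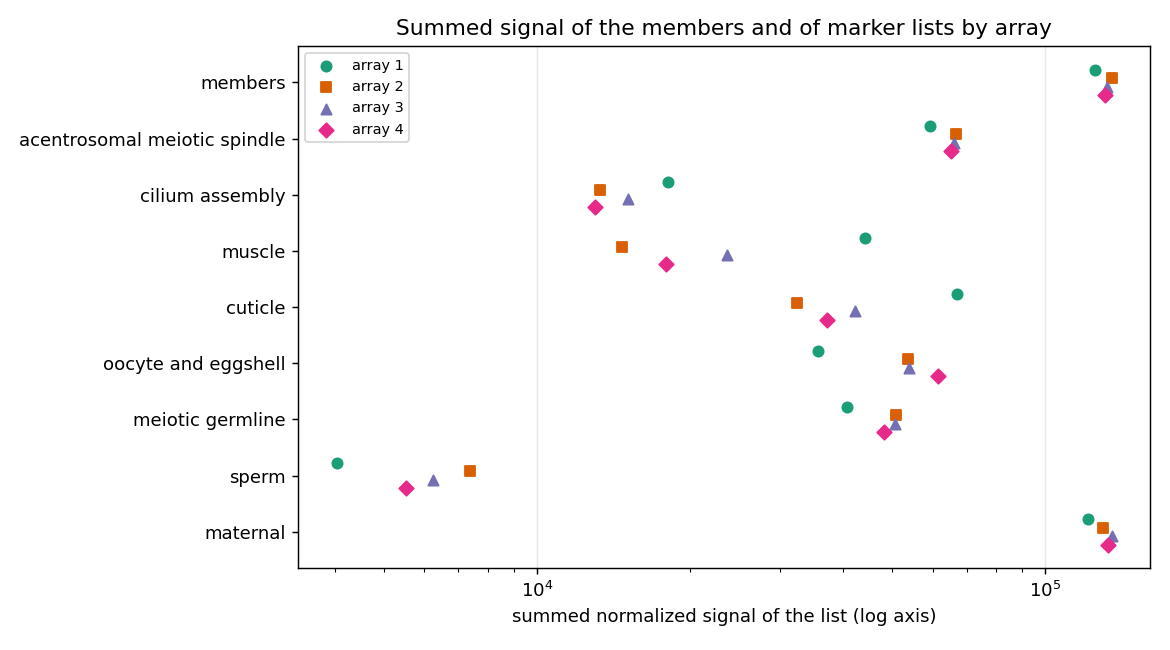
Summed normalized signal (horizontal log axis) of the members, the acentrosomal spindle and cilium genes and 6 marker lists, by array. The members and maternal markers lie within 1.08-fold and 1.11-fold ranges, whereas muscle spans 3.01-fold with array 1 highest and oocyte and eggshell 1.73-fold with array 1 lowest.

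Other genes of centrosome and spindle biology gave signal in the same way. Outside the cilium list, all 44 genes of 6 lists were above background, against 51.9% of all named genes. The list of 4 centriole and scaffold partners had a median height of 3.97. It held sas-1 at 3.05 ± 0.08, needed for stable centrioles, sas-7 at 5.49 ± 0.18, which acts upstream of SPD-2, and the centriole protein gene hyls-1 at 4.31 ± 0.11 (SD, n = 4, limma adjusted p at most 2.20e-09). For sas-1 and hyls-1 array 1 was the lowest, by deviations of -0.19 and -0.17, larger than for any of the 10 members.

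Among the 14 regulators of assembly, the median height was 5.71. The Polo-like kinase genes plk-1, whose product phosphorylates the SPD-5 scaffold, and plk-2 had heights of 6.60 ± 0.16 and 5.13 ± 0.14. The RNA-binding protein gene szy-20, a negative regulator of ZYG-1, had a height of 5.71 ± 0.16 (SD, n = 4, limma adjusted p at most 2.59e-10). Signal of plk-1 and szy-20 spanned only 1.05-fold and 1.04-fold over the arrays, while plk-2 spanned 1.27-fold with array 1 the lowest.

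The 8 microtubule factors at the centrosome had a median height of 5.03. The genes gip-2 and mzt-1, for the other subunits of the gamma-tubulin complex, had heights of 4.69 ± 0.14 and 4.05 ± 0.09 (SD, n = 4). Both were lowest on array 1, with deviations of -0.09 and -0.15, on the opposite side from gip-1 at 0.06. The TAC-1 partner zyg-9 had a height of 5.94 ± 0.14. Among the 10 genes for dynein, cortical force and nuclear anchoring, the dynein heavy chain gene dhc-1 had a height of 6.01 ± 0.18 and spanned 1.01-fold in signal, and the dynactin genes dnc-1 and dnc-2 had heights of 5.73 ± 0.17 and 5.24 ± 0.15.

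Genes for microtubule arrays without centrosomes were present as well. In the oocyte the meiotic spindle forms with no centrosome, and its 6 genes had a median height of 4.87. They included the katanin subunit genes mei-1 and mei-2, at 4.95 ± 0.17 and 4.801 ± 0.153, and the kinesin gene klp-18 at 5.25 ± 0.15 (SD, n = 4, limma adjusted p at most 3.00e-10). The median deviation of these 6 genes was -0.144 on array 1, and 5 of them were lowest there. The genes noca-1 and ptrn-1, which organise microtubules away from centrosomes, had heights of 6.37 ± 0.21 and 5.37 ± 0.26. The brightest transcripts of both were highest on array 1, as those of gip-1 were, while noca-1 transcripts T09E8.1b and T09E8.1c were highest on array 3.

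Cilia grow from modified centrioles in sensory neurons later in development, and the genes that build them were mostly near background. Of 12 cilium genes, 3 were above background, 1 was below it and 8 were not told apart from it, where 51.9% of all named genes were above and 39.1% below. Their median height was 0.05. Those above were daf-19, the transcription factor of ciliary genes, at 4.94 ± 0.33, and the intraflagellar transport genes osm-1 and osm-5 at 2.19 ± 0.33 and 1.30 ± 0.80 (SD, n = 4, limma adjusted p = 1.45e-09, 5.22e-07 and 0.00147). The dynein light intermediate chain gene xbx-1 was below at -0.91 ± 0.33 (limma adjusted p = 0.000193, n = 4). The kinesin gene osm-3, at 0.20 ± 0.25, was not told apart from background (limma adjusted p = 0.117, n = 4). The other heights that did not pass were -0.50 to 0.27. With the 75th percentile of the chemoreceptors, or the 25th percentile of all transcripts, as background, 8 of the 12 were above. With the 99th percentile the osm-5 call ended, at a height of 0.39, and with the 75th the xbx-1 call did, at -0.07. The gene osm-3 was above background with 1 background for all arrays, at 0.20 (limma adjusted p = 0.0139). The signal of the cilium genes was highest on array 1 in 11 of 12, against 5452 of all 19380 named genes. Most of these 12 lay near or below background, with 8 not told apart from it and 1 below. For osm-5 the intensities were 1380, 511, 861 and 626 on arrays 1 to 4. That order, with array 1 first, then arrays 3, 4 and 2, was also that of the muscle and cuticle sums. The same order held for osm-6, che-2, che-3, che-11, che-13, bbs-1, bbs-8 and xbx-1, all near or below background. The genes osm-1 and daf-19 had array 4 last, and osm-3 was highest on array 3. A link between the cilium genes and these sums was not tested.

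**Figure D5:**
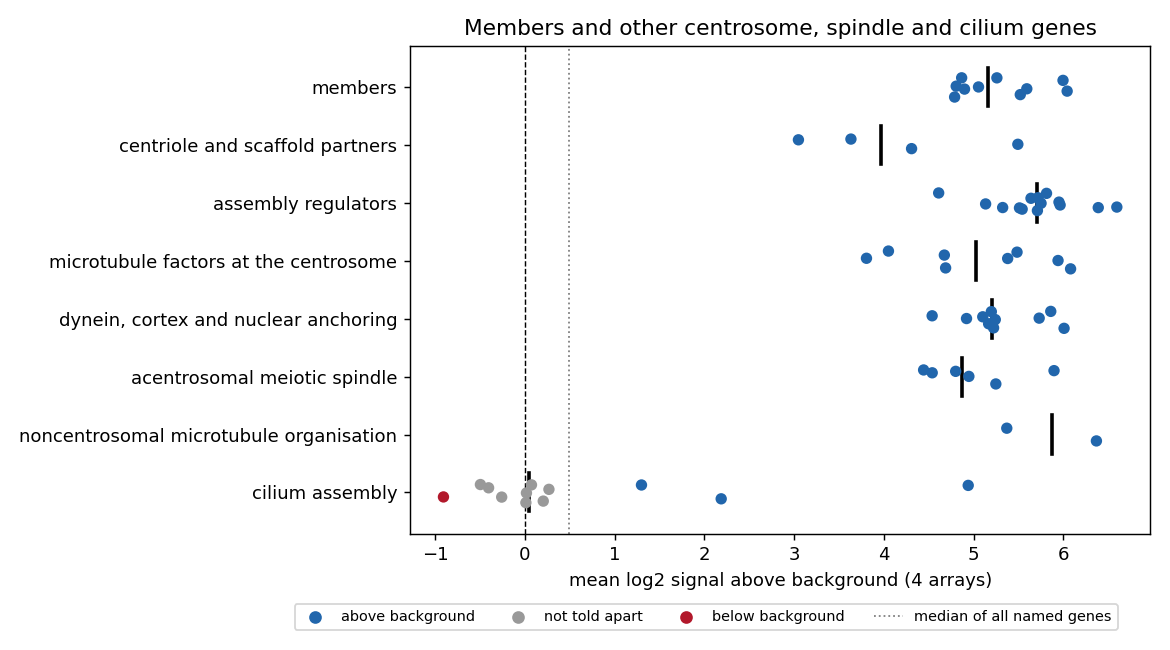
Mean height above background on the log2 scale (horizontal axis) of the members and of 7 lists of related genes, 1 point per gene coloured by its call, with the list median as a black bar. Members lie between 4.79 and 6.04, and the cilium genes mostly lie around 0.

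Genes next to the centrosome genes on the chromosomes were mixed. Of 20 protein-coding neighbours, the nearest on either side in the annotation, 19 were measured. There were 14 above background and 5 below, where 51.9% of all named genes were above and 39.1% below, and their median height was 2.54. The gene spd-5 lay between hcp-6, a condensin gene, and npp-6, a nuclear pore gene, at heights of 5.86 and 5.84. By contrast both neighbours of sas-5, piit-1 and tag-290, were below background at -0.40 and -1.06. One side of zyg-1 held the collagen gene bli-2 at -0.51, and the other was not analysed here. The gene sas-4 lay between F10E9.2 at -0.59 and F10E9.11 at 3.36, and gip-1 between the splicing factor gene phf-5 at 2.54 and srd-69 at -1.14, a chemoreceptor that is part of the background itself. With the 75th percentile of the chemoreceptors as background, piit-1, bli-2 and F10E9.2 were above it, at 0.43, 0.32 and 0.24.

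The neighbours of the remaining genes were all above background. Beside spd-2, mdt-31 and F32H2.10 had heights of 2.04 and 3.49, and beside sas-6, icap-1 and Y45F10D.7 had 0.83 and 4.79. For tac-1 they were smg-9, a gene of nonsense-mediated decay, at 3.09 and Y54E2A.4 at 1.20. For air-1 they were cogc-6 at 4.60 and pax-1 at 0.81. The calls of icap-1 and pax-1 ended with the 99th percentile of the chemoreceptors as background, at -0.08 and -0.10. Next to tbg-1, the polymerase subunit gene rpac-19 had a height of 4.24 and the transcription factor gene hlh-11 one of 3.41. The log2 signal of hlh-11 was 13.09 on array 1 and 11.12 to 11.43 on the other arrays, while tbg-1 itself was lowest on array 1 at 13.14 and lay between 13.21 and 13.26 on the others.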

How the data were processed

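Each deposited file gives a linear intensity per transcript, which the authors had quantile normalized and averaged, per the file headers and names. Cy3 labelling was done by NimbleGen, per the labels' protocols. Scanner, background correction, probes per transcript and genome build: not given in the sources used here. The series-wide table was identical, with a largest difference of 0. Quantile normalization hides a shift of most transcripts between arrays.

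Of 23181 transcripts, 17151 matched a RefSeq gene table of assembly WBcel235 as written, 5352 did after removal of the isoform letter, and 678 were unmatched. The table was used for names, chromosomes and gene order only. Log2 heights were tested against 0 by an intercept-only limma 3.58.1 model (lmFit, eBayes) in R 4.3.3, two-sided, with Benjamini-Hochberg adjustment over all transcripts, after a test on simulated data. The brightest transcript gave a gene's value, and any transcript above background gave its call. Members, lists and background rule were chosen with earlier results of these data known. Named genes were all members, the first 3 of each related list with up to 4 of another call, the first 2 of each marker list, the neighbours and the 3 nearest profiles. The number of arrays limits the precision. Alternatives were other backgrounds, an eBayes intensity trend, other gene summaries, centred arrays and each array left out.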

Additional observations from a re-analysis of the deposited data

Results flagged for a closer look

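In each of 75 named transcripts, the gap between the highest or lowest array and the next was compared with the whole range of the 4 log2 signals. In 7 of them that share passed Dixon's critical value, which chance alone gives in about 5% of groups. Among the members this was zyg-1, at 13.24 on array 1 against 13.41 to 13.42 on the others. Among related genes, hyls-1 was low on array 1 at 12.46 (others 12.67 to 12.69), dnc-1 was low on array 1 at 14.03 (others 14.05 to 14.06), and ptrn-1 was high on array 1 at 13.81 (others 13.64 to 13.66). The meiotic marker him-3 was low on array 1 at 12.14 (others 12.75 to 12.81). Of the neighbours, hlh-11 was high on array 1 at 13.09 (others 11.12 to 11.43), and tag-290, a transcript below background, was high on array 2 at 7.32 (others 7.22 to 7.24). Array 1 was the separate array in 6 of the 7, and the cause was not tested. Among all named genes above background, 54.9% were lowest and 26.9% highest on array 1. An extreme on array 1 was therefore common and not particular to these transcripts.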

How the results depend on the processing

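All 12 member transcripts and all 10 member genes were above background under each alternative run, including each array left out, where the counts stayed at 12 and 10. Member heights ran from 2.93 to 6.88 over these settings, with a largest limma adjusted p of 3.41e-07. The 10 genes were also above background with the mean of each gene's transcripts. The share of all named genes above background was 44.0% with the 99th percentile of the chemoreceptors, 70.1% with the 75th and 66.2% with the 25th percentile of all transcripts. The cilium count, 3 of 12, became 8 with the 75th percentile and 8 with the 25th percentile of all transcripts, and was 3 to 4 with 1 array left out. With the 99th percentile, spe-9 fell to -0.31, pax-1 to -0.10 and icap-1 to -0.08. With the 75th, and with the 25th percentile of all transcripts, the values were 0.50 and 0.38 for vit-2, 0.54 and 0.42 for vit-3, 0.24 and 0.12 for F10E9.2, 0.43 and 0.30 for piit-1, and 0.32 and 0.20 for bli-2, all now on the other side of the background. Of these only the 0.12 of F10E9.2 was not told apart from background (limma adjusted p = 0.103). The osm-5 call ended with the 99th percentile (0.39) and the xbx-1 call with the 75th (-0.07). Calls were gained by osm-3 and spe-11 with the 99th percentile (-0.71 and -0.87), the 75th (1.04 and 0.87) and the 25th of all transcripts (0.91 and 0.75), and by osm-3 with 1 background for all arrays (0.20). Without array 2 or 4, vit-2 was not told apart from background (-0.28 for both), nor was vit-3 without array 2, 3 or 4. The median deviation of the members on array 1, -0.055, was -0.050 after arrays were centred on the transcripts above background, -0.024 after centring on the named genes above background, chosen after seeing the data, and -0.051 to -0.046 with another array left out. No paired analysis was possible because all arrays form 1 group.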
